A study of Mus musculus with 6 samples.

Results

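Heat shock proteins are chaperones that bind unfolded proteins, keep them from aggregating and help them refold, and co-chaperones set the pace of that work. The genes described are 10 rows of the deposited count table, taken by symbol out of 53735 rows. They comprise the inducible HSP70 genes Hspa1a and Hspa1b, the constitutive HSP70 gene Hspa8, the inducible cytosolic HSP90 gene Hsp90aa1, the co-chaperones Hsph1, Dnajb1 and Bag3, and the small heat shock protein genes Hspb1, Hspb7 and Cryab. All 10 passed the filter on low counts, which left 14145 rows of the whole table. The rule takes them by symbol and not by a measured value.

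Aortic RNA was sequenced from mice without the long noncoding RNA Mymsl (KO) and from mice that carry it (wild type, WT), in 3 libraries each. Per the labels' protocols, smooth muscle cells of the aortic media were purified and their mRNA was sequenced with strand information. The labels give no allele, strain, age, sex or treatment of the mice, and mention no pooling. Total counts lay between 20048216 and 23243129 in KO libraries and between 23506674 and 25521123 in WT libraries. No row carries the name Mymsl. The only row that edgeR called, RP23-57D10.3, had 0 counts in each KO library, against 314, 378 and 273 counts in WT replicates 1, 2 and 3. It was at least 277-fold lower in KO (adjusted p = 0.00527), taking 3 counts over the KO group as the floor, and the files do not say whether it is Mymsl. Smooth muscle markers were abundant, with summed levels between 43786 and 57856 CPM (read counts scaled to library size, with normalization by trimmed mean of M values, TMM) in KO libraries and between 52578 and 56078 CPM in WT libraries. Nothing says that each library came from a separate mouse, so p-values measure only the spread between these libraries.

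As background, stress frees the transcription factor HSF1, which binds heat shock elements upstream of chaperone genes and induces them within minutes, Hspa1a and Hspa1b most of all. HSP70 proteins work in cycles: J proteins such as the product of Dnajb1 deliver clients and start ATP hydrolysis, and exchange factors such as Hsph1 and Bag3 release them. Small heat shock proteins hold clients without ATP, and in muscle they guard actin, desmin and filamin, with Bag3 sending damaged filamin to autophagy.

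The upstream sequences of the genes are shown because they separate members with a match to a short heat shock motif near the start site from members without a match. RefSeq windows on GRCm38.p6 were at hand for 7 of the 10 genes. In the 250 bases before the start, the motif of 2 facing or opposed units, GAANNTTC or TTCNNGAA, was searched. Each form is its own reverse complement, so both strands were covered. It occurred in 4 of the 7 genes, namely Hspa1a, Hspa1b, Hsph1 and Hspb1, and in 14.5% of all 27025 genes with a window (12.8% of 32851 windows). The 3-unit form GAANNTTCNNGAA, with its reverse complement TTCNNGAANNTTC, includes the 2-unit motif. It occurred in 0 of the 7 genes and in 0.514% of all genes with a window. Such a match is a description of letters and not a measured binding site. Only exact matches within the 250 bases were counted, so a gene without a match may still hold a heat shock element. Dnajb1, which has no match, is not shown. Of its RefSeq windows, that from 83608298 lies inside the gene, which begins at 83608193 in GENCODE M21 (plus strand). The sequences below run 5′ to 3′ on the strand of the gene, from base 140 to base 41 before the RefSeq start, and capitals mark the fixed letters of the 2-unit motif.
Hspa1a (chr17:34972197-34972296, minus strand): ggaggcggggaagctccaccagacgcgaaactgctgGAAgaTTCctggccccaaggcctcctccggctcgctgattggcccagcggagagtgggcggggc
Hspa1b (chr17:34959279-34959378, minus strand): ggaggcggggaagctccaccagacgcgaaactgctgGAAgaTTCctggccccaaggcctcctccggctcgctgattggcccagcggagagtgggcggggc
Hspb1 (chr5:135887779-135887878, plus strand): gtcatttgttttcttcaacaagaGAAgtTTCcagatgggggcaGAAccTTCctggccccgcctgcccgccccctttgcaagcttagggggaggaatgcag
Hspb7 (chr4:141420639-141420738, plus strand): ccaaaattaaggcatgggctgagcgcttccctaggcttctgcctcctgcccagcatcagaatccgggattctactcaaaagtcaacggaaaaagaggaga
Bag3 (chr7:128523443-128523542, plus strand): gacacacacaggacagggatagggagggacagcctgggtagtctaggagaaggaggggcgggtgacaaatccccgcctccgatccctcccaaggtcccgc

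The Hspa1a and Hspa1b stretches were identical, and over all 250 bases the pair differed at 3 positions. Their motif lay 104 to 97 bases before the start. Hspb1 held the motif at 2 places, 117 to 110 and 97 to 90 bases before the start. The Hsph1 motif lay 54 to 47 or 33 to 26 bases before the start, depending on the RefSeq start taken. In GENCODE M21 the gene begins further upstream, at 149636376, so there the motif lies inside the gene and not before it. For Hsph1 a shorter stretch is given, because it overlaps the first exon of the gene in GENCODE M21.
Hsph1 (chr5:149636351-149636380, minus strand): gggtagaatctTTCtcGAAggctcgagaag

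None of the 10 genes differed between KO and WT beyond the spread between libraries. In the quasi-likelihood test of edgeR, adjusted by Benjamini and Hochberg over 14145 rows, 0 of 10 passed an adjusted p of 0.05, and 0 of 10 had an unadjusted p under 0.05. DESeq2 and limma-voom also called 0 of 10. Over all rows tested, edgeR called 0.00707% and DESeq2 1.47% (0.517% higher and 0.952% lower in KO), and 14.6% had an unadjusted p under 0.05 in edgeR (6.8% higher and 7.76% lower in KO). Log2 fold changes of KO over WT lay between −0.18 and 0.52, with 8 of 10 above 0. Their median was 0.028, beside 0.012 over all rows tested. KO and WT libraries overlapped at each of the 10 genes, while 21.8% of all rows tested did not overlap. The 10 genes together summed to 2231, 2204 and 2622 CPM in KO replicates 1, 2 and 3, against 2304, 2322 and 1789 CPM in WT replicates 1, 2 and 3. The group means, 2352 ± 234 CPM in KO and 2139 ± 303 CPM in WT (SD, n = 3 each), had an exact two-sided permutation p of 0.6, where 3 against 3 libraries allow no p below 0.1.

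**Figure D1:**
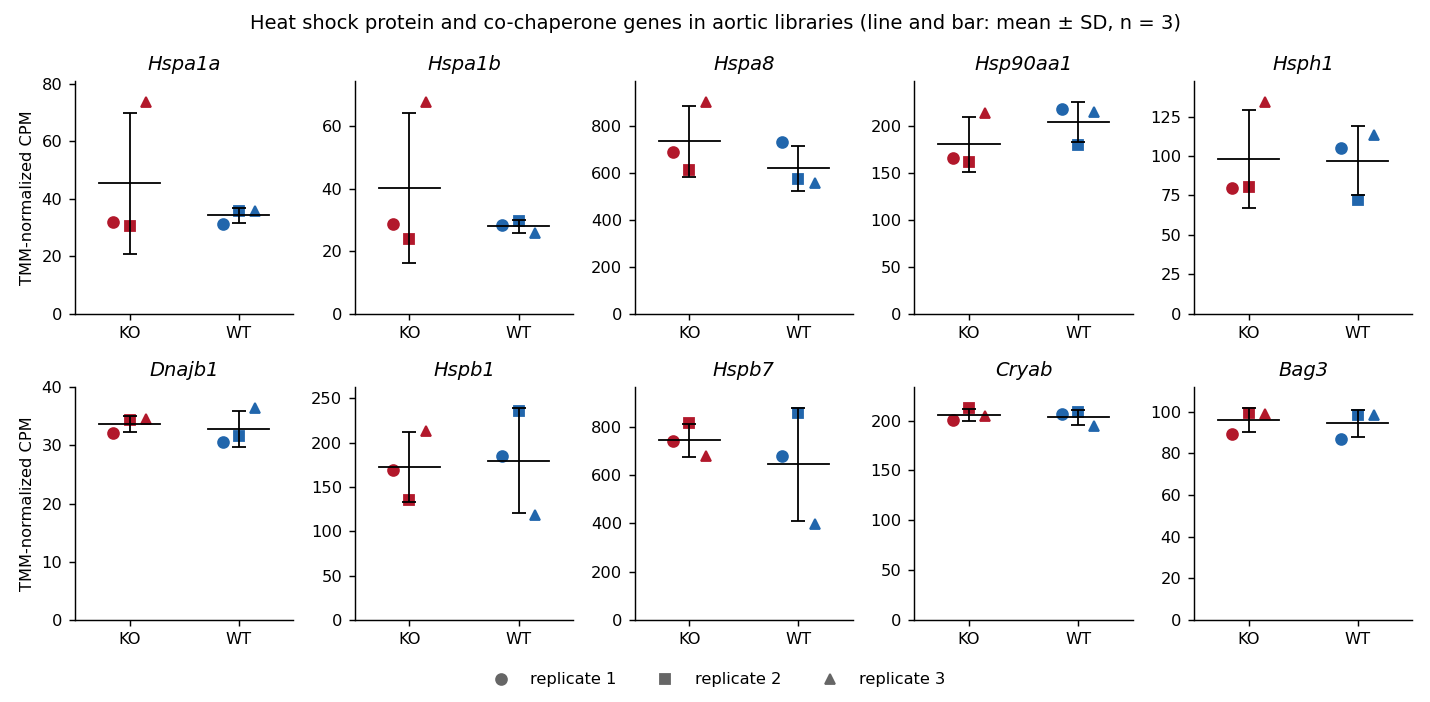
TMM-normalized CPM of each gene (vertical axes, each from 0) in the 3 KO and 3 WT libraries, with symbols for replicates and lines and bars for mean ± SD. Hspa1a and Hspa1b stand apart in KO replicate 3 (73.5 and 67.7 CPM), Hspb7 is lowest in WT replicate 3 (395 CPM), and Cryab and Bag3 are level over all 6 libraries.

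What the genes did differ in was how evenly they were expressed from library to library. The heat-inducible HSP70 pair was level in 5 libraries and high in KO replicate 3. Hspa1a, which encodes the main stress-induced HSP70, was at 31.9, 30.5 and 73.5 CPM in KO replicates 1, 2 and 3, against 31.2, 35.8 and 35.7 CPM in WT replicates 1, 2 and 3. Hspa1b, whose protein is nearly the same, was at 28.9, 23.8 and 67.7 CPM in KO, against 28.5, 29.7 and 25.7 CPM in WT. KO replicate 3 was therefore at 2.15 times the WT mean for Hspa1a and 2.42 times for Hspa1b, while KO replicates 1 and 2 were between 0.849 and 1.03 times that mean. The fitted log2 fold changes were 0.41 ± 0.32 (SE, edgeR adjusted p = 0.556) and 0.52 ± 0.36 (adjusted p = 0.499). Their 95% intervals, −0.33 to 1.15 and −0.31 to 1.35, correspond to 0.794 to 2.22 times and 0.809 to 2.55 times the WT level.

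The direction of both rests on that library. Without KO replicate 3 the log2 fold changes were −0.13 ± 0.092 for Hspa1a and −0.090 ± 0.11 for Hspa1b (SE, edgeR adjusted p = 0.558 and 0.757).

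Hspa1a spans 34969190 to 34972156 and Hspa1b spans 34956436 to 34959238 of chromosome 17 (GRCm38, GENCODE M21, minus strand). Of 50-base stretches of the Hspa1a transcript, 58.8% also occur in Hspa1b, so a read of that length from there cannot be assigned to 1 copy. Summed over the pair, counts came to 60.8, 54.3 and 141 CPM in KO replicates 1, 2 and 3, against 59.7, 65.5 and 61.4 CPM in WT replicates 1, 2 and 3. With the pair as a single row the log2 fold change was 0.46 ± 0.33 (SE, edgeR adjusted p = 0.525), and KO replicate 3 was at 2.27 times the WT mean.

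The constitutive HSP70 and its exchange factor were also highest in KO replicate 3, by less. Hspa8 encodes Hsc70, the housekeeping HSP70 that also strips clathrin from vesicles. It was at 692, 613 and 903 CPM in KO replicates 1, 2 and 3, against 731, 574 and 557 CPM in WT replicates 1, 2 and 3, and WT replicate 1 was above 2 of the 3 KO libraries. The log2 fold change was 0.25 ± 0.16 (SE, edgeR adjusted p = 0.493), with a 95% interval of −0.14 to 0.63. It was 0.071 ± 0.14 without KO replicate 3 (adjusted p = 0.855). Hsph1, which encodes the HSP110 protein that frees HSP70 from ADP, was at 79.9, 80.4 and 134 CPM in KO, against 105, 72.1 and 113 CPM in WT. Here the WT libraries were themselves spread, so the 2 lower KO libraries stood within the WT range. The log2 fold change was 0.020 ± 0.24 (adjusted p = 0.976), and it was −0.27 ± 0.18 without KO replicate 3 (adjusted p = 0.545).

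Hsp90aa1, the stress-inducible cytosolic HSP90, had the lowest fold change of the 10 genes. It was at 166, 161 and 214 CPM in KO replicates 1, 2 and 3, against 218, 180.0 and 214 CPM in WT replicates 1, 2 and 3. KO replicates 1 and 2 were below every WT library, and KO replicate 3 was level with WT replicate 3. The log2 fold change was −0.18 ± 0.13 (SE, edgeR adjusted p = 0.515), with a 95% interval of −0.48 to 0.12, and −0.32 ± 0.10 without KO replicate 3 (adjusted p = 0.327).

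Dnajb1 and Bag3, the co-chaperones that hand clients to HSP70 and release them, were level over all 6 libraries. Dnajb1 was at 32.1, 34.4 and 34.5 CPM in KO replicates 1, 2 and 3, against 30.5, 31.6 and 36.4 CPM in WT replicates 1, 2 and 3. Bag3 was at 89.3, 99.5 and 98.8 CPM in KO, against 87.0, 98.1 and 98.3 CPM in WT. In both genes the libraries of the genotypes were interleaved. The log2 fold changes were 0.035 ± 0.084 and 0.021 ± 0.075 (SE, edgeR adjusted p = 0.865 and 0.912). Their 95% intervals correspond to 0.894 to 1.17 times the WT level for Dnajb1 and 0.899 to 1.14 times for Bag3. In KO replicate 3 Dnajb1 was at 1.05 times the WT mean. Another cytosolic J protein gene, Dnaja1, named here after its values were seen, was at 48.9, 49.8 and 79.5 CPM in KO, against 50.2, 47.5 and 48.8 CPM in WT, so KO replicate 3 was at 1.63 times the WT mean (log2 0.28 ± 0.18, edgeR adjusted p = 0.466).

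Cryab, which encodes alphaB-crystallin, a chaperone of desmin and actin filaments in muscle, was the most even of the 10 genes. It was at 200.4, 212 and 205 CPM in KO replicates 1, 2 and 3, against 207, 209 and 195 CPM in WT replicates 1, 2 and 3. Its log2 fold change was 0.017 ± 0.062 (SE, edgeR adjusted p = 0.915), and the 95% interval runs from 0.915 to 1.12 times the WT level. Its neighbour Hspb2, another muscle small heat shock protein gene, was at 41.5, 46.5 and 46.9 CPM in KO, against 40.3, 44.1 and 37.4 CPM in WT (log2 0.15 ± 0.083, adjusted p = 0.428). In GENCODE M21 Cryab spans 50751325 to 50756636 on the plus strand and Hspb2 spans 50751078 to 50752354 on the minus strand of chromosome 9. They overlap, and the sources used here do not give the strand setting of the counting, so both levels are uncertain there.

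The other small heat shock protein genes varied most among WT libraries. Hspb7, a heart and smooth muscle protein that binds filamin, was at 741, 815 and 678 CPM in KO replicates 1, 2 and 3, against 681, 856 and 395 CPM in WT replicates 1, 2 and 3. Hspb1, which encodes HSP25, a regulator of actin filaments, was at 169, 135 and 214 CPM in KO, against 186, 236 and 118 CPM in WT. For both genes WT replicate 3 was the lowest and WT replicate 2 the highest of all 6 libraries, so the KO values lay inside the WT range. WT replicate 3 was at 0.514 times the mean of the other WT libraries for Hspb7 and 0.562 times for Hspb1. By that ratio 2.71% and 3.49% of all rows tested were as low or lower. The log2 fold changes were 0.21 ± 0.25 for Hspb7 (SE, edgeR adjusted p = 0.714) and −0.061 ± 0.25 for Hspb1 (adjusted p = 0.927). Without WT replicate 3 they were −0.040 ± 0.13 and −0.28 ± 0.20 (adjusted p = 0.941 and 0.674). Endothelial and adipocyte markers were low in WT replicate 3 too: 7 of 11 and 6 of 9 of them had their lowest value there. Other lists did not share this. The lowest value lay there for 0 of 12 macrophage, 0 of 10 adventitial fibroblast and 1 of 11 smooth muscle markers. It did so for 3 of 14 heart muscle, 2 of 11 skeletal muscle and 1 of 8 Schwann cell markers. The endothelial list summed to 413 CPM in WT replicate 3, with 537 and 445 CPM in WT replicates 1 and 2, and the adipocyte list to 141 CPM, with 306 and 199.8 CPM. Their part in the low Hspb7 and Hspb1 values was not tested.

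**Figure D2:**
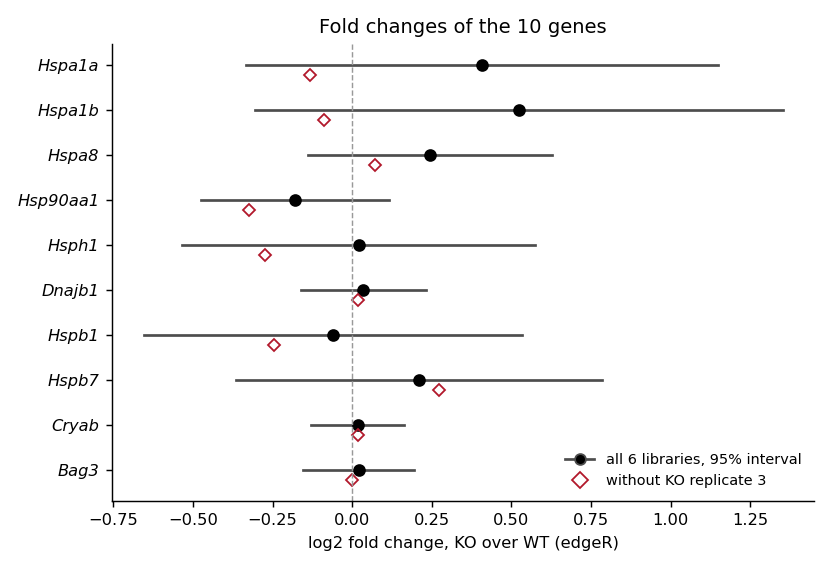
Log2 fold changes of KO over WT (horizontal axis) with 95% intervals for the 10 genes from all 6 libraries, and open diamonds for the fit without KO replicate 3. Every interval includes 0, and the points of Hspa1a, Hspa1b and Hsph1 change sides of 0 without that library (Bag3 moves to −0.0016).

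Set among rows of like abundance, some genes were uneven and others even. The SD of log2 CPM over the 6 libraries was 0.55 for Hspa1b, 0.48 for Hspa1a, 0.40 for Hspb7, 0.38 for Hspb1 and 0.35 for Hsph1. Between 95.7% and 98.2% of rows within 1.5-fold of the same mean level had a smaller SD than these 5 genes. Hspa8 (0.26) and Hsp90aa1 (0.20) were more even, with 89.9% and 83.2% of such rows below them. Dnajb1 (0.094) and Bag3 (0.085) had 35.1% and 35% of rows below them, and Cryab (0.044) had 4.6%. Of the 7 genes with a promoter window, the 4 that hold the 2-unit motif had SDs between 0.35 and 0.55. Of the 3 without it, Bag3 and Dnajb1 were at 0.085 and 0.094 and Hspb7 at 0.40. This is a description over 7 genes, of which Hspa1a and Hspa1b share their promoter sequence. It did not extend to all other chaperone genes with a match. The 3-unit form occurred in Dnajb6, Hspd1 and Hspe1. Log2 CPM minus the WT mean ran from −0.11 to 0.14 in Dnajb6, −0.12 to 0.11 in Hspd1 and −0.31 to 0.30 in Hspe1. In Dnajb1, without a match, it ran from −0.10 to 0.15.

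**Figure D3:**
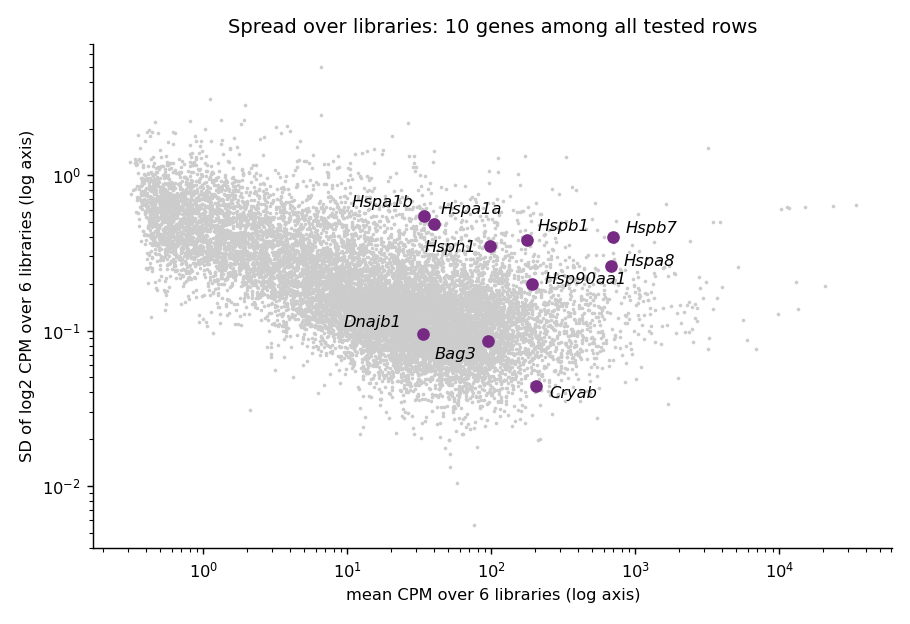
SD of log2 CPM over the 6 libraries (vertical log axis) against mean CPM (horizontal log axis) for all 14145 rows tested (grey) and the 10 genes (purple). Hspa1b, Hspa1a, Hspb7, Hspb1 and Hsph1 lie at the upper edge of rows of their level (0.35 to 0.55), and Cryab lies at the lower edge (0.044).

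Levels were compared between genes per kilobase of exon (GENCODE M21), in CPM per kb, with all annotated exons of a gene merged. Merged exons span 4301 bases in Hspa8 and 7266 in Hsph1, where the longest coding transcripts span 2394 and 3802 bases. For Hspb7 both lengths are 2769 bases. The order of Hspb7 and Hspa8, and the place of Hsph1, therefore depend on the length taken. By merged exons Hspb7 was highest, at 269 ± 24.8 in KO and 233 ± 84 in WT (SD, n = 3 each, also below), although its WT libraries overlapped those of Hspa8. Hspa8 (171 ± 34.9 in KO, 144 ± 22.3 in WT), Hspb1 (167 ± 38.4 and 175 ± 57.2, KO before WT) and Cryab (139 ± 4.06 in KO, 138 ± 5.1 in WT) followed, and these 3 did not differ beyond their spread. Hsp90aa1 was at 45.8 ± 7.44 in KO and 51.9 ± 5.33 in WT, and Bag3 at 37.4 ± 2.23 in KO and 36.9 ± 2.52 in WT. At the low end Hspa1a (15.3 ± 8.23 in KO, 11.5 ± 0.885 in WT), Hspa1b (14.3 ± 8.58 in KO, 9.98 ± 0.73 in WT), Hsph1 (13.5 ± 4.29 in KO, 13.3 ± 3.01 in WT) and Dnajb1 (10.5 ± 0.419 in KO, 10.3 ± 0.968 in WT) overlapped. Even in KO replicate 3, Hspa1a and Hspa1b taken singly reached 24.8 and 24.2 CPM per kb, each below Hsp90aa1 in every library. The pair together was not compared per kb. These levels are uncertain for genes with near-identical copies. Of 50-base stretches, 60.3% in Hspa1a and 62.3% in Hspa1b occur in 2 other annotated genes each. The share was 73.2% in Hspa8, in 11 other annotated genes, 58.5% in Hsp90aa1, in 4, and 51.6% in Hspb1, in 1. Hsph1, Cryab and Bag3 share none. The sources used here do not say how such reads were counted.

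KO replicate 3 differed from the other libraries in more than the heat shock genes. Relative to KO replicates 1 and 2, its log2 difference was 1.36 for Hspa1b, 1.24 for Hspa1a, 0.74 for Hsph1, 0.49 for Hspb1, 0.47 for Hspa8 and 0.39 for Hsp90aa1. By that measure 1.33% of all rows tested were at or above Hspa1b, 1.71% at or above Hspa1a and 4.84% at or above Hsph1. Dnajb1 (0.053), Bag3 (0.065), Cryab (−0.0093) and Hspb7 (−0.20) lay near 0 or below. Of 21 early response genes, which are switched on within minutes of a stimulus, 17 had their highest value in KO replicate 3. Their summed level was 1649, 1000.1 and 2713 CPM in KO replicates 1, 2 and 3, against 1452, 1668 and 1918 CPM in WT replicates 1, 2 and 3. The most abundant of them were Dusp1 (497 CPM in KO replicate 3, at most 368 CPM elsewhere), Btg2 (373 CPM, at most 238 CPM elsewhere) and Klf6 (209.6 CPM, with 205 to 213 CPM elsewhere). Their part in the heat shock values was not tested.

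Markers of other cell types moved in the same library. Of 11 endothelial markers 9 were highest in KO replicate 3, with a summed level of 783 CPM there, 499 and 474 CPM in KO replicates 1 and 2, and 413 to 537 CPM in WT. Of 12 macrophage markers 10 were highest there, with 138 CPM, 111 and 51.7 CPM in KO replicates 1 and 2, and 55.6 to 96.3 CPM in WT. Of 9 adipocyte markers 6 were highest there, with 325 CPM, 217 and 176 CPM in KO replicates 1 and 2, and 141 to 306 CPM in WT. Heart muscle markers were highest in KO replicate 1 (12 of 14, 172 CPM), as were adventitial fibroblast markers (8 of 10, 2263 CPM). Heart muscle markers summed to 112 and 93.8 CPM in KO replicates 2 and 3 and to 83.7 to 115 CPM in WT, and adventitial fibroblast markers to 1003 and 1951 CPM in KO replicates 2 and 3 and to 1018 to 1779 CPM in WT. Smooth muscle markers summed to 43786, 57856 and 46973 CPM in KO replicates 1, 2 and 3, and to 52578 to 56078 CPM in WT. Of the 11, 5 had their lowest value in KO replicate 1 and 5 in KO replicate 3. Schwann cell markers lay between 637 and 734 CPM in KO and 693.9 and 761 CPM in WT, and skeletal muscle markers between 9.21 and 12.7 CPM in KO and 8.19 and 12.9 CPM in WT. No marker of these lists was at 0 in all 6 libraries. In bulk RNA, fewer cells of a type and less RNA per cell cannot be told apart, and the part of these markers in the heat shock values was not tested. Mitochondrially encoded genes held between 10% and 18.9% of counts in KO libraries and between 5.66% and 9.02% in WT libraries, with 13% in KO replicate 3.

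**Figure D4:**
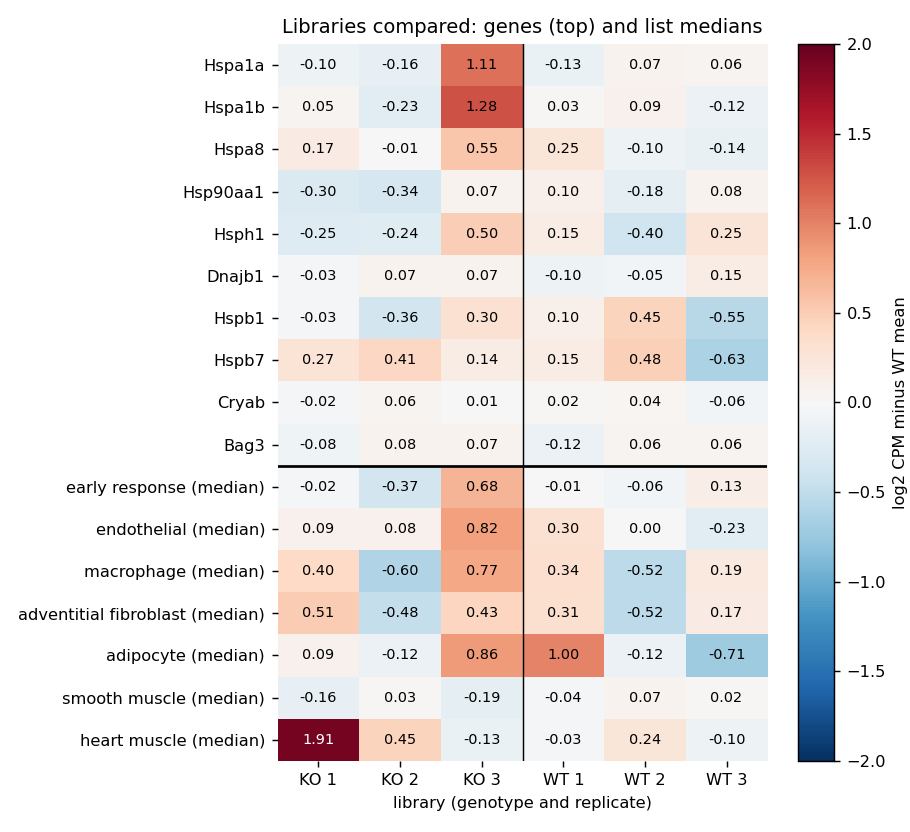
Log2 CPM minus the WT mean in each library (columns, KO left of WT) for the 10 genes and, below the line, the median of this value over tested marker and early response genes. KO replicate 3 stands out for Hspa1a (1.11), Hspa1b (1.28), early response (0.68), endothelial (0.82) and macrophage (0.77) genes, and KO replicate 1 for heart muscle (1.91).

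The rows most like the HSP70 pair were found by the root mean square difference of centred log2 CPM over the 6 libraries, among 8989 rows with a mean of at least 10 CPM. Closest was Irf9, a transcription factor of interferon signalling, at a difference of 0.136. It was at 18.1, 16.0 and 45.1 CPM in KO replicates 1, 2 and 3, against 16.4, 15.7 and 16.1 CPM in WT replicates 1, 2 and 3. Next came the secreted glycoprotein gene Lgals3bp (0.143), the class I histocompatibility gene H2-K1 (0.157), the early response gene Ier2 (0.171) and the transcription factor gene Irf1 (0.172), each highest in KO replicate 3. A high value in that library follows from the way these rows were picked. Of the remaining 8 heat shock genes, Hspa8 ranked 90 with a difference of 0.318 and Hsph1 ranked 131 with 0.345, and the other 6 had differences between 0.416 (Hsp90aa1) and 0.595 (Hspb7). Among the further chaperone lists 3 genes were nearer the pair than Hspa8, and they are named after their values were seen. Dnaja1 ranked 14 (0.223), Hspa12b ranked 19 (0.234) and Chordc1, an HSP90 co-chaperone gene, ranked 84 (0.313). Chordc1 was at 41.6, 42.0 and 56.1 CPM in KO replicates 1, 2 and 3, against 40.7, 46.6 and 40.3 CPM in WT replicates 1, 2 and 3 (log2 0.13 ± 0.13, edgeR adjusted p = 0.646).

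The wider chaperone system was read from 9 further lists. In none of them did a gene pass in edgeR or in DESeq2, and their median log2 fold changes lay between −0.053 and 0.11, beside 0.012 over all rows tested. Hsf1, which encodes the factor that drives heat shock genes, was at 44.6, 44.2 and 46.5 CPM in KO replicates 1, 2 and 3, against 43.0, 42.8 and 42.9 CPM in WT replicates 1, 2 and 3. All KO libraries were above all WT libraries, as at 10.5% of all rows tested, by a log2 fold change of 0.073 ± 0.055 (SE, edgeR adjusted p = 0.544). Of the other heat shock factor genes tested, Hsf2 (−0.011 ± 0.14) and the HSF1 inhibitor Hsbp1 (0.012 ± 0.057) were near 0, and Hsf4 was at 1.84 ± 0.591 CPM in KO and 1.17 ± 0.297 CPM in WT (SD, n = 3 each).

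Other HSP70 genes had 4 of 11 fold changes above 0, 1 of them with an unadjusted p under 0.05, and a median of −0.013. Hspa14, a ribosome-associated HSP70, was at 24.2 ± 1.02 CPM in KO and 21.0 ± 0.736 CPM in WT (SD, n = 3 each; log2 0.20 ± 0.072, edgeR adjusted p = 0.285). Hspa9, the mitochondrial HSP70, was at 164 ± 3.83 CPM in KO and 178 ± 10.6 CPM in WT (−0.12 ± 0.066), and Hspa5, the HSP70 of the endoplasmic reticulum, 479 ± 31.1 CPM in KO and 534 ± 97 CPM in WT (−0.16 ± 0.14). Hspa13 had −0.12 ± 0.09. In KO replicate 3, where Hspa1a and Hspa1b were high, Hspa5 was at 461 CPM and Hspa9 at 166 CPM, both below their WT means. Hspa12b, an atypical HSP70 known from endothelial cells and named here after its values were seen, was at 11.7, 7.78 and 20.1 CPM in KO replicates 1, 2 and 3, against 12.2, 8.93 and 11.1 CPM in WT replicates 1, 2 and 3. Of the 10 rows of this list with a mean of at least 10 CPM, it alone was highest in KO replicate 3 (log2 0.30 ± 0.31, adjusted p = 0.677), the library in which endothelial markers had their highest summed level; their part in its value was not tested.

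Genes of HSP90 and its co-chaperones had 13 of 21 fold changes above 0, 2 of them with an unadjusted p under 0.05, and a median of 0.040. Ahsa2, a relative of the HSP90 activator Aha1, was at 39.3 ± 6.14 CPM in KO and 29.7 ± 2.89 CPM in WT (SD, n = 3 each; log2 0.40 ± 0.13, edgeR adjusted p = 0.277). Stub1 encodes CHIP, the ubiquitin ligase that tags chaperone clients for destruction. It was at 83.6, 85.2 and 80.9 CPM in KO replicates 1, 2 and 3, against 76.8, 75.3 and 67.9 CPM in WT replicates 1, 2 and 3 (0.18 ± 0.065, adjusted p = 0.285). KO libraries were thus above all WT libraries, as at 10.5% of all rows tested. The cyclophilin gene Ppid had 0.19 ± 0.092, and Unc45a, which encodes a myosin chaperone, −0.11 ± 0.085.

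J protein genes, other than Dnajb1, had 36 of 42 rows tested, with 16 fold changes above 0 and 20 below and a median of −0.019. With an unadjusted p under 0.05, 1 was higher and 2 were lower in KO. Dnajc7, which binds both HSP70 and HSP90, was at 80.8, 64.1 and 68.1 CPM in KO replicates 1, 2 and 3, against 52.3, 60.0 and 54.3 CPM in WT replicates 1, 2 and 3 (log2 0.35 ± 0.098, edgeR adjusted p = 0.264). Dnajb14 and Dnajb12, membrane J proteins of the endoplasmic reticulum, had −0.19 ± 0.06 and −0.13 ± 0.061, and Dnajc3, an inhibitor of eIF2alpha kinases, −0.22 ± 0.078 (adjusted p = 0.277, 0.366 and 0.289). Genotypes were fully separated at 2 J protein genes higher in KO and at 6 lower in KO, where 10.5% and 11.3% of all rows tested were so.

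Other small heat shock protein genes had 3 of 6 rows tested, and Hspb3, Hspb9 and Cryaa had no counts. Hspb6, a smooth muscle relaxation protein, was at 203 ± 15.8 CPM in KO and 200 ± 17.9 CPM in WT (SD, n = 3 each; log2 0.025 ± 0.09), and Hspb8, the partner of Bag3, 160 ± 17.6 CPM in KO and 174 ± 5.16 CPM in WT (−0.12 ± 0.088). Among genes that act with Bag3 in autophagy, 4 of 8 were above 0, with a median of −0.053. Synpo2, an actin-bundling protein that brings Bag3 to the autophagosome, was at 1257, 1184 and 1039 CPM in KO replicates 1, 2 and 3, against 1413, 1372 and 1425 CPM in WT replicates 1, 2 and 3. KO libraries were below all WT libraries, as at 11.3% of all rows tested, by a log2 fold change of −0.28 ± 0.093 (SE, edgeR adjusted p = 0.279). Filamin C (Flnc), a client of this route, had −0.19 ± 0.11, and the autophagy adaptor gene Wdfy3 had −0.22 ± 0.098. Synpo2 is also a smooth muscle marker, and 10 of 11 such markers had fold changes below 0, with a median of −0.15.

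Exchange factor genes other than Hsph1 and Bag3 had 5 of 9 above 0 and a median of 0.012. Bag1 was at 118 ± 8.55 CPM in KO and 105 ± 3.47 CPM in WT (SD, n = 3 each; log2 0.17 ± 0.07, edgeR adjusted p = 0.339), Bag5 had −0.16 ± 0.077, Bag4 −0.26 ± 0.14 and Bag2 −0.050 ± 0.10. Chaperonin genes were split evenly, with 7 above and 7 below 0 and a median of −0.0078. Bbs12, of the chaperonin-like complex of the cilium base (0.34 ± 0.14), and the mitochondrial Hspe1 (0.24 ± 0.13) were the highest named, and Cct7 and Cct6a of the cytosolic ring had −0.081 ± 0.061 and −0.073 ± 0.068. Prefoldin genes, whose products hand new actin and tubulin chains to that ring, had 5 of 9 above 0 and a median of 0.11. Pfdn2 (0.16 ± 0.065), Pdrg1 (0.17 ± 0.069), Pfdn6 (0.19 ± 0.084) and Pfdn5 (0.13 ± 0.07) had adjusted p between 0.327 and 0.419 in edgeR.

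**Figure D5:**
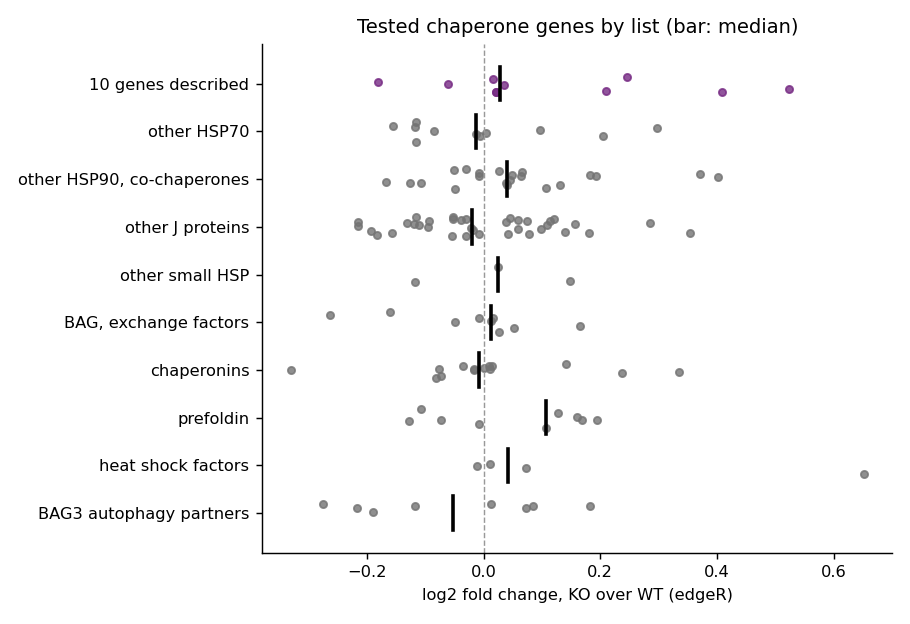
Log2 fold changes of KO over WT (horizontal axis) of every tested gene in the 10-gene set and in 9 further chaperone lists (rows; vertical scatter within a row has no meaning), with bars for medians. Medians lie between −0.053 and 0.11, and no point passed the test.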

How the data were processed

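Values are the authors' deposited gene counts, whole and unnormalized, of 6 libraries. Per the submitters' processing notes, the build was GRCm38, and the programs named are STAR 2.6.0c, Trimmomatic 0.36, Subread 1.6.1 and featureCounts. The sources used here do not give the annotation release, strand setting or handling of multi-mapping reads. Genotypes were compared by edgeR 4.0.16 (quasi-likelihood, R 4.3.3), with genotype as the only term, TMM normalization, filterByExpr (minimum count 10, minimum total 15) and adjustment over 14145 rows. Standard errors and 95% intervals were derived from the fitted fold change and its F statistic. Alternatives were DESeq2 1.42.0, limma-voom (limma 3.58.1), DESeq2 size factors, other filters, mitochondrial genes left out, Hspa1a and Hspa1b summed, the replicate number as a block, and each library left out. Profiles used log2 CPM with 0.5 counts added. The genes, the other lists and the markers were chosen with earlier results of these data known. The text names the 10 genes, Hsf1, up to 4 genes of smallest p per chaperone list, the 3 most abundant genes of marker lists it discusses, the rows most like the HSP70 pair, and Hspb2. Dnaja1, Hspa12b, Chordc1, Dnajb6 and Hspd1 fall outside this rule.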

Additional observations from a re-analysis of the deposited data

How the results depend on the processing

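None of the 10 genes was called under any alternative run, and neither was any gene of the 9 further lists by edgeR or DESeq2 on all 6 libraries. Over all rows, edgeR called 1, DESeq2 179 (63 higher, 116 lower), edgeR without a filter 9, and 0 to 3 with single libraries left out. The labels do not say whether same-numbered libraries are paired. Deviations from group means of same-numbered KO and WT libraries correlated at 0.0981, 0.139 and −0.0562 over rows, and the fit with a replicate block called 0 rows. With so few libraries, whose deviations within a group are not independent, these values cannot decide whether they were paired. The median of the 10 genes lay between −0.046 (without KO replicate 3) and 0.12 (without KO replicate 2) with single libraries left out. The difference in summed CPM was 45.1 at the lowest, without WT replicate 3, and 305 at the highest, without WT replicate 2, beside 213 with all libraries. Fold changes of the 10 genes changed sign only with single libraries left out. Over these, log2 fold changes ranged from −0.13 to 0.63 for Hspa1a, −0.090 to 0.79 for Hspa1b, −0.27 to 0.15 for Hsph1, −0.28 to 0.18 for Hspb1, −0.040 to 0.47 for Hspb7, −0.013 to 0.12 for Dnajb1, −0.033 to 0.069 for Bag3 and −0.0091 to 0.036 for Cryab. Hspa8 (0.071 to 0.38) and Hsp90aa1 (−0.32 to −0.10) kept their direction. Medians of the further lists near 0 also changed sign with the filter: chaperonins were at 0.0090 with a mean count of at least 50, and exchange factors at −0.00038 with no filter. Single libraries left out moved other medians. Without KO replicate 1, Bag3 autophagy partners went from −0.053 to 0.011 and J proteins from −0.019 to 0.0041. Other HSP70 genes then went from −0.013 to −0.097. Without KO replicate 2, prefoldin genes went from 0.11 to 0.045.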
